A study of Mus musculus with 8 samples.

Results

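The collagen genes of the mouse were examined in RNA from crypts of the small intestine, the pockets of epithelium that hold the intestinal stem cells. All protein-coding genes whose symbol has the form Col, a number, a and a number were taken, which gave 44 of the 55880 genes in the deposited count table and of its 21933 protein-coding genes. The series compared 8 RNA-seq libraries, all labelled as small intestinal crypts of C57BL/6N mice before irradiation. By genotype label, 4 libraries were wild type and 4 were miR-29ab1-/-, in which the microRNA genes for miR-29a and for the first copy of miR-29b are named as deleted; the labels name no Cre driver, age, litter, day or batch. The title of the series places the deletion in a study of intestinal stem cell fate and energy metabolism; collagens are long-known targets of the miR-29 family. Without a litter, day or batch in the labels, the p-values below set the group difference against the spread of these 8 libraries within groups.

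Collagens are secreted or membrane proteins with a triple helix. Types I, III and V build the fibrils of connective tissue, type IV the network of basement membranes, and type VI the beaded filaments around cells, and fibroblasts and smooth muscle are known as the main makers of the fibrillar types. Type VII anchors the basement membrane of epithelium to the tissue beneath it, and the fibril-associated types, called FACIT, sit on the surface of fibrils. The miR-29 family is known for binding collagen messenger RNAs through sites in their 3′ untranslated regions (3′ UTRs) and lowering their level, mostly in fibroblasts and in fibrosis.

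The 3 mature microRNAs of the family are shown because their shared seed, the bases at positions 2 to 8, gave the sites that were searched. The seed is in capitals. The sequences are from RefSeq on GRCm38.p6. Mir29a (chr6:31062673-31062694, minus strand) and Mir29b-1 (chr6:31063025-31063047, minus strand) are the genes named in the genotype, while Mir29c (chr1:195037600-195037621, plus strand) and Mir29b-2 (chr1:195037091-195037113, plus strand) are outside it. All 3 have the seed AGCACCA, and Mir29b-1 and Mir29b-2 give the same mature miR-29b-3p.
miR-29a-3p: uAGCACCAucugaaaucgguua
miR-29b-3p: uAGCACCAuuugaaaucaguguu
miR-29c-3p: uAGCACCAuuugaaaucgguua

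Matches to the seed were searched on the transcript strand of the 3′ UTRs annotated in GENCODE M21 (GRCm38), as the 7 letters TGGTGCT and as the longer form of 8 letters, TGGTGCTA, which contains it. A 7-base match was found in 25 of 44 collagen genes (56.8%), beside 2907 of 20658 protein-coding genes with a 3′ UTR (14.1%). The 8-base match was found in 16 collagen genes (36.4%, beside 3.1%), and 12 had at least 2 matches (27.3%, beside 2.3%). The longest annotated 3′ UTR had a median of 1032 bases in collagen genes and 989 bases in all protein-coding genes. A match is a description of the letters and shows no binding. Matches to only part of the 7 letters were not searched, so a gene given below as without a site may hold one of those.

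The sites below belong to the collagens whose values are given in most detail. Each line holds 15 bases before the match and the match itself in capitals, 5′ to 3′ on the transcript strand; in Col16a1 the last base is outside the 7-base match and is in lower case. All lie in annotated 3′ UTRs on GRCm38: Col3a1 at chr1:45348967-45348989 (plus strand), Col1a1 at chr11:94952523-94952545 (plus), Col7a1 at chr9:108984580-108984602 (plus), Col15a1 at chr4:47312485-47312507 (plus), Col16a1 at chr4:130099253-130099275 (plus), Col6a2 at chr10:76598750-76598772 (minus) and Col4a1 at chr8:11199761-11199783 (minus). Col6a2 has a second 8-base match in another annotated 3′ UTR, Col7a1 a second 7-base match, Col4a5 has 3 matches of 8 bases and Col5a1, Col4a3 and Col26a1 have 4 matches each. No match was found in the annotated 3′ UTRs of Col1a2, Col6a1, Col11a2, Col14a1, Col18a1 and Col20a1.
Col3a1: ttcaaaatgtctcaaTGGTGCTA
Col1a1: gtgggaaggaatttcTGGTGCTA
Col7a1: ctgctgtgctccattTGGTGCTA
Col15a1: atccaatccacatatTGGTGCTA
Col16a1: tccatggggttccccTGGTGCTg
Col6a2: gagcacaaatgggggTGGTGCTA
Col4a1: gccaccgtcacaacaTGGTGCTA

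Depth was 13879472 to 17368666 counts per library. The targeted locus was read first: the 4 libraries labelled knockout had 2 to 7 counts of Mir29b-1 each, the wild-type libraries 0, and Mir29a, Mir29b-2 and Mir29c had 0 counts in all 8. These few counts assigned to the Mir29b-1 annotation go against the genotype label taken at face value, but they do not show that the precursor was made. Mature microRNAs are not measured by such libraries either, so the group is called labelled knockout and directions are given by label. Lncpint, a noncoding RNA of the same locus, had 1831 to 2608 counts in the labelled knockout libraries and 11 to 16 in the wild-type libraries. Gm27019, read with it, had 227 to 327 counts in the labelled knockout libraries and 0 in the wild-type libraries. The epithelial label was met: all 8 epithelial markers passed the low-count filter, with Krt8 at a mean of 1709 FPKM and Epcam at 824 FPKM (the deposited measure, fragments scaled to gene length and library size). The library labelled wild type 1 stood apart in several collagens, so values without it are given beside them.

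Collagen transcripts were scarce in crypt RNA. Together they made up 4410 counts over the 8 libraries, or 0.003587% of all counts, and 77.9% of these fell in 9 genes: Col20a1, Col7a1, Col11a2, Col15a1, Col18a1, Col3a1, Col16a1, Col6a1 and Col6a2. These 9 passed the low-count filter of edgeR (20.5% of collagen genes, beside 57.2% of protein-coding genes) and could be tested; when 5 CPM were asked of 4 libraries, only Col7a1 was left. Of the others, 19 had 20 to 117 counts in all, 12 had 1 to 9, and Col4a6, Col19a1, Col22a1 and Col24a1 had none. A count of 0 in a library allows up to 3 counts, and 6 collagens were above 3 counts in every library: Col20a1, Col7a1, Col11a2, Col15a1, Col18a1 and Col16a1. Reads carry no molecular identifiers, so this floor covers counting error only.

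Olfactory and vomeronasal receptor genes, which intestinal crypts are not known to use, served as a measure of noise. Of 1454 such genes 106 had a count, and the 95th percentile of their mean FPKM was 0.00368. The mean of 36 of 44 collagen genes was above that level, but only 15 were above it in every library and only 14 were above the 99th percentile of 0.0473 FPKM. Those 14 were the 9 tested genes with Col9a3, Col1a1, Col14a1, Col1a2 and Col4a1. The 95th percentile was a low bar, since Col10a1 and Col9a2 passed it with 2 counts each. The highest receptor gene had a mean of 3.86 FPKM, above that of every collagen. No tested collagen reached the median of all genes tested, 4.70 FPKM.

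On the FPKM scale the most abundant collagen was Col20a1, a FACIT collagen, with a mean of 1.21 FPKM and 0.660 to 2.22 FPKM over the libraries. It was followed by Col7a1 with a mean of 0.542 FPKM, Col11a2 with 0.497 FPKM, Col15a1 with 0.460 FPKM and Col18a1 with 0.409 FPKM. Col3a1 had a mean of 0.316 FPKM, Col16a1 of 0.273 FPKM, Col6a1 of 0.241 FPKM and Col6a2 of 0.110 FPKM. The range of each of the 9 over the libraries overlapped that of its neighbour in this order. Col9a3 (0.151 FPKM), Col1a1 (0.136 FPKM) and Col14a1 (0.115 FPKM), which did not pass the filter, had means between those of Col6a1 and Col6a2. Lower still were Col1a2 with 0.0726 FPKM, Col4a1 with 0.0518 FPKM and Col4a2 with 0.0310 FPKM.

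**Figure D1:**
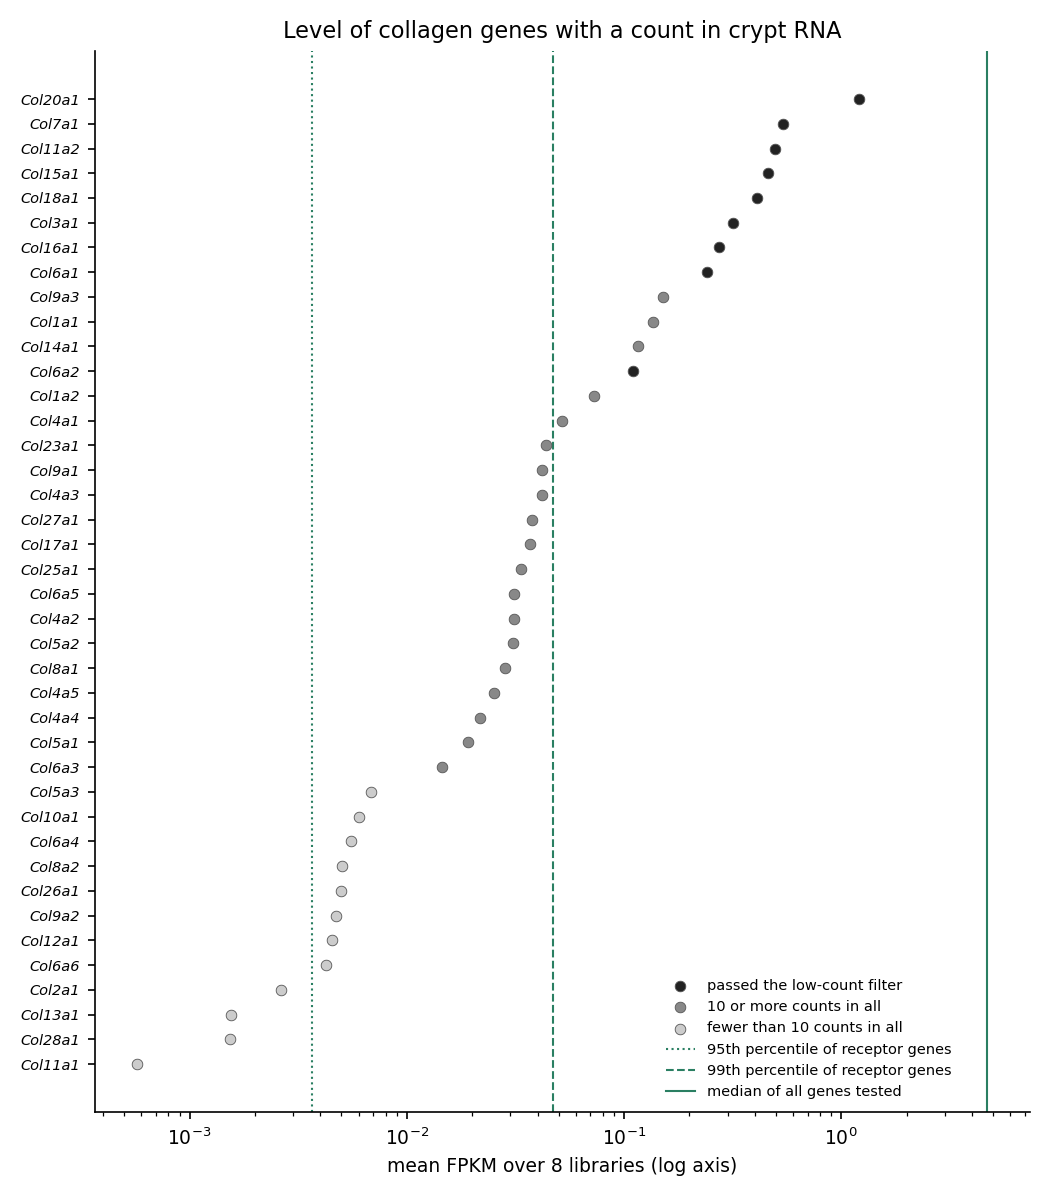
Mean FPKM over 8 libraries (horizontal log axis) of the 40 collagen genes with a count, 1 point per gene, shaded by whether the gene passed the low-count filter, had 10 or more counts in all, or fewer. The 3 vertical lines mark the 95th (0.00368) and 99th (0.0473) percentile of receptor genes and the median of all genes tested (4.70); every collagen lies below the last.

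No collagen gene differed between the groups past the threshold. Of the 9 tested, 0 had an adjusted p under 0.05 (edgeR quasi-likelihood test, Benjamini-Hochberg over all 14897 genes tested; each adjusted p was 0.994), 0 had an unadjusted p under 0.05, and in 0 were the groups separated without overlap. Over all genes tested the shares were 0.0201% called, 2.7% with an unadjusted p under 0.05 and 1.53% without overlap. The log2 fold change, labelled knockout over wild type, was above 0 in 5 of the 9 and below 0 in 4, with a median of 0.30, beside a median of 0.01 and 52.0% above 0 over all genes tested. These tallies rested on single libraries: without wild type 1 they were 8 above 0 and 1 below, with a median of 0.61 (53.4% above 0 over all genes tested), and without labelled knockout 4 they were 4 and 5, with a median of -0.040 (48.5% above 0). The precision was low: the median SE of these log2 fold changes was 0.45, beside 0.21 over all genes tested.

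The same held with other choices of genes and tool. With no filter, 40 collagens could be fitted; 0 were called (0.0173% of 28883 genes were) and 1, Col14a1, had an unadjusted p under 0.05 (2.85% of genes did). With DESeq2, 28 collagens had an adjusted p; 0 were called (0.109% of genes were) and 1, again Col14a1, had an unadjusted p under 0.05 (2.32% of genes did).

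The fibrillar collagens came first among the classic targets. Col3a1 (ENSMUSG00000026043, chromosome 1, 45311538 to 45349706), the main partner of type I in soft connective tissue and a carrier of the 8-base site printed above, had 10.2, 1.88, 1.29 and 0.135 CPM (counts scaled to library size, here with TMM factors) in wild type 1 to 4. In labelled knockout 1 to 4 it had 0.882, 6.76, 1.06 and 2.98 CPM. The spread within the wild-type group alone covered every labelled knockout value. The fitted difference was -0.21 on the log2 scale, SE 1.02 (edgeR, adjusted p = 0.994), with a 95% interval of 0.177-fold to 4.25-fold. Without wild type 1 it was 1.39 (edgeR, adjusted p = 0.999), in the other direction.

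Col1a1 (ENSMUSG00000001506, chromosome 11, 94936224 to 94953042), the main chain of type I and also a carrier of an 8-base site, did not pass the filter. It had 49, 18, 4 and 0 counts in wild type 1 to 4 and 5, 21, 6 and 10 counts in labelled knockout 1 to 4. Col1a2 (ENSMUSG00000029661, chromosome 6, 4504814 to 4541544), the second chain of type I, had 71, 15, 1 and 1 counts in the wild-type libraries and 1, 27, 0 and 1 in the labelled knockout libraries. For both genes wild type 1 was the highest library and labelled knockout 2 the next, and the groups overlapped. The mean of Col1a1 was 1.09 ± 1.36 CPM in wild type and 0.718 ± 0.476 CPM in labelled knockout, and that of Col1a2 was 1.35 ± 2.04 CPM and 0.477 ± 0.854 CPM (SD, n = 4 each). Without wild type 1 the wild-type means were 0.454 CPM for Col1a1 and 0.355 CPM for Col1a2, below those of the labelled knockout group.

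Col11a2 (ENSMUSG00000024330, chromosome 17, 34039437 to 34066685), a fibrillar chain best known from cartilage, has no site. It had 3.8, 1.69, 3.39 and 2.62 CPM in wild type and 2.94, 4.29, 5.72 and 3.13 CPM in labelled knockout. Of the labelled knockout libraries 2 lay within the wild-type range and 2 above it. Labelled knockout over wild type, the log2 fold change came to 0.49, SE 0.32 (edgeR, adjusted p = 0.994), an interval of 0.847-fold to 2.31-fold. Of the other fibrillar chains, Col5a1, a chain that starts fibrils and a carrier of 4 sites, had 0 to 9 counts per library in wild type and 0 to 5 in labelled knockout. Col5a2 had 2 to 15 and 0 to 4 counts, and Col27a1 2 to 11 and 7 to 15 counts. Col5a3 had 6 counts in all, Col2a1 3 and Col11a1 1.

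The basement membrane collagens, type IV, were all too low to test. Col4a1 (ENSMUSG00000031502, chromosome 8, 11198423 to 11312826) had 11, 8, 0 and 1 counts in wild type and 4, 6, 15 and 4 in labelled knockout. Col4a2 (ENSMUSG00000031503, chromosome 8, 11312805 to 11449287), its partner in the common form of the network, had 8, 4, 4 and 1 counts in wild type and 0, 5, 1 and 3 in labelled knockout. In both genes the groups overlapped, and the 2 genes, which lie head to head, share 22 bases in the annotation. The mean of Col4a1 was 0.311 ± 0.329 CPM in wild type and 0.470 ± 0.279 CPM in labelled knockout, and that of Col4a2 was 0.261 ± 0.174 CPM and 0.155 ± 0.151 CPM (SD, n = 4 each). Col4a3 had 3 to 13 counts per library in wild type and 1 to 6 in labelled knockout, and Col4a4 had 0 to 13 and 1 to 5. Col4a5, the gene with 3 sites of 8 bases, had 0 to 3 and 1 to 6 counts. Summed over the 6 genes, type IV was 1.54 ± 0.872 CPM in wild type and 1.31 ± 0.435 CPM in labelled knockout. Without wild type 1, the highest of the 8 libraries in that sum, the wild-type mean was 1.13 CPM, below that of labelled knockout, and it was 0.190 CPM for Col4a1 and 0.184 CPM for Col4a2.

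Type VI was led by Col6a1 and Col6a2, 2 chains of the same filament. Col6a1 (ENSMUSG00000001119, chromosome 10, 76708792 to 76726168), with no site, had 4.59, 0.690, 0.585 and 0 CPM in wild type and 0.368, 0.846, 0.295 and 1.18 CPM in labelled knockout. Col6a2 (ENSMUSG00000020241, chromosome 10, 76595762 to 76623630), with 2 sites, had 3.06, 1.07, 0.526 and 0.135 CPM in wild type and 0.147, 1.37, 0.177 and 0.940 CPM in labelled knockout. In both, wild type 1 was the highest library and wild type 4 the lowest, and the groups overlapped. For Col6a1 the log2 fold change was -1.15, SE 1.04 (edgeR, adjusted p = 0.994), and without wild type 1 it was 0.61. That of Col6a2 was -0.87, SE 0.91 (edgeR, adjusted p = 0.994), and without wild type 1 it was 0.17. Col6a3 had 0 to 5 counts per library in wild type and 0 to 11 in labelled knockout, and Col6a5 had 2 to 5 and 1 to 14. Col6a4 had 6 counts in all and Col6a6 5.

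Col7a1 (ENSMUSG00000025650, chromosome 9, 108953586 to 108984875) makes the anchoring fibrils beneath epithelium, and epithelial cells themselves are known to express it. It had 3.98, 3.89, 5.26 and 5.52 CPM in wild type and 7.72, 9.17, 3.42 and 6.03 CPM in labelled knockout. Of the 4 labelled knockout libraries 3 were above every wild-type library, and labelled knockout 3 was the lowest of all 8. Col7a1 had the smallest p among the tested collagens, at a log2 fold change of 0.50 (SE 0.30, adjusted p = 0.994 by edgeR), and a 95% interval that ran from 0.879-fold to 2.26-fold. Without labelled knockout 3 it was 0.71 (edgeR, adjusted p = 0.576).

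Among the FACIT collagens, Col20a1 (ENSMUSG00000016356, chromosome 2, 180986535 to 181018363) had 4.29, 3.64, 5.03 and 9.55 CPM in wild type and 4.12, 8.85, 3.42 and 11.4 CPM in labelled knockout. Each group held both low and high libraries. On the log2 scale the groups differed by 0.30, SE 0.44 (edgeR, adjusted p = 0.994), an interval of 0.617-fold to 2.47-fold, and by -0.040 without labelled knockout 4. Col20a1 shares 741 bases on the same strand with the noncoding gene 9230112E08Rik, which had 729 counts in all, so reads of that stretch could have been split between them. Col16a1 (ENSMUSG00000040690, chromosome 4, 130047840 to 130099283), with a single 7-base site, had 2.82, 1.07, 0.877 and 0.942 CPM in wild type and 1.76, 2.28, 1.59 and 3.52 CPM in labelled knockout. All labelled knockout libraries were above wild type 2, 3 and 4, and wild type 1 was above 3 of them. For Col16a1 the fitted log2 difference was 0.67, SE 0.45 (edgeR, adjusted p = 0.994); without wild type 1 it was 1.24 (edgeR, adjusted p = 0.999).

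Col14a1 (ENSMUSG00000022371, chromosome 15, 55307750 to 55520803), a FACIT collagen of fibroblasts with no site, is described because it was the only collagen with an unadjusted p under 0.05 without the filter, a choice made after its values were seen. It had 64, 18, 9 and 4 counts in wild type and 1, 3, 1 and 5 in labelled knockout. All but the lowest wild-type library were above every labelled knockout library. Fitted without the filter, the log2 fold change was -3.03 (edgeR, adjusted p = 0.865). In the authors' deposited table the log2 fold change was -3.04, with an adjusted p of 0.311. The wild-type mean was 1.46 ± 1.68 CPM with wild type 1 and 0.641 CPM without it, and the labelled knockout mean was 0.180 ± 0.154 CPM (SD, n = 4 each). Among the other FACIT genes, Col9a3 had 7 to 12 counts per library in wild type and 1 to 17 in labelled knockout, Col9a1 had 1 to 4 and 0 to 8, Col12a1 had 9 counts in all and Col9a2 2.

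The multiplexins, Col15a1 and Col18a1, are collagens of basement membrane zones. Col15a1 (ENSMUSG00000028339, chromosome 4, 47208161 to 47313167), with an 8-base site, had 1.29, 4.51, 3.04 and 5.11 CPM in wild type and 3.01, 3.97, 1.53 and 1.10 CPM in labelled knockout. Wild type 1, the highest library for types I, III and VI, was the lowest of its group here. Its log2 fold change was -0.53, SE 0.50 (edgeR, adjusted p = 0.994), an interval of 0.316-fold to 1.51-fold, and -0.81 without wild type 1. Col18a1 (ENSMUSG00000001435, chromosome 10, 77052178 to 77166548), with no site, had 4.66, 2.38, 1.23 and 1.41 CPM in wild type and 3.09, 2.73, 2.42 and 5.25 CPM in labelled knockout. The groups overlapped through wild type 1. Here the log2 fold change was 0.47, SE 0.45 (edgeR, adjusted p = 0.994), and without wild type 1 it was 1.00 (edgeR, adjusted p = 0.999). Col18a1 shares 8825 bases on the opposite strand with Slc19a1, a folate carrier with 5684 counts; the kit marks strand, but the sources used here do not say whether the counting used it.

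Of the transmembrane collagens, Col17a1, a part of the hemidesmosomes of epithelium, had 1 to 4 counts per library in wild type and 1 to 8 in labelled knockout. Col23a1 had 1 to 9 and 0 to 8 counts, Col25a1 2 to 10 and 3 to 13, and Col13a1 1 count in all. Of the short-chain network types, Col8a1 had 1 to 7 and 0 to 4 counts, and Col8a2 had 3 counts and Col10a1 2 in all. Col26a1 had 5 counts in all and Col28a1 1. In Col17a1, Col23a1, Col25a1 and Col8a1 the groups overlapped.

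**Figure D2:**
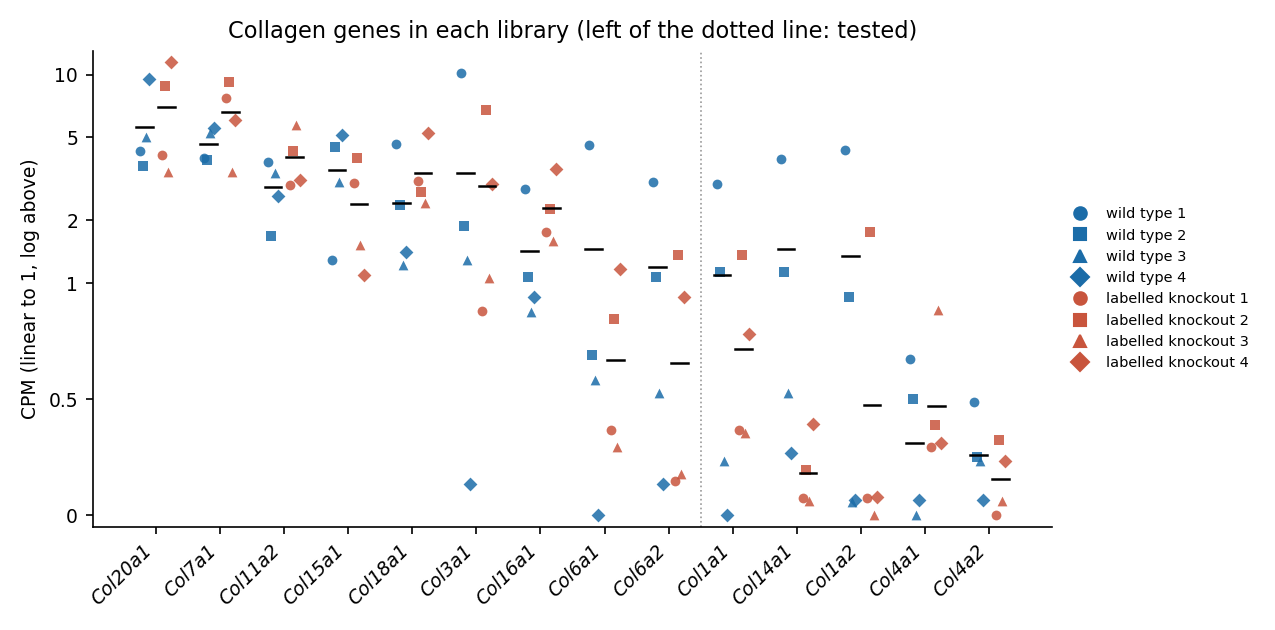
CPM in each library (vertical axis, linear up to 1 and log above) of the 9 tested collagens and of Col1a1, Col14a1, Col1a2, Col4a1 and Col4a2, wild type in blue and labelled knockout in red, with the number of the library as the marker shape and the group mean as a bar. Wild type 1 is the highest point in Col3a1, Col6a1, Col6a2, Col1a1, Col14a1, Col1a2 and Col4a2, and the groups overlap in all 14 genes.

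**Figure D3:**
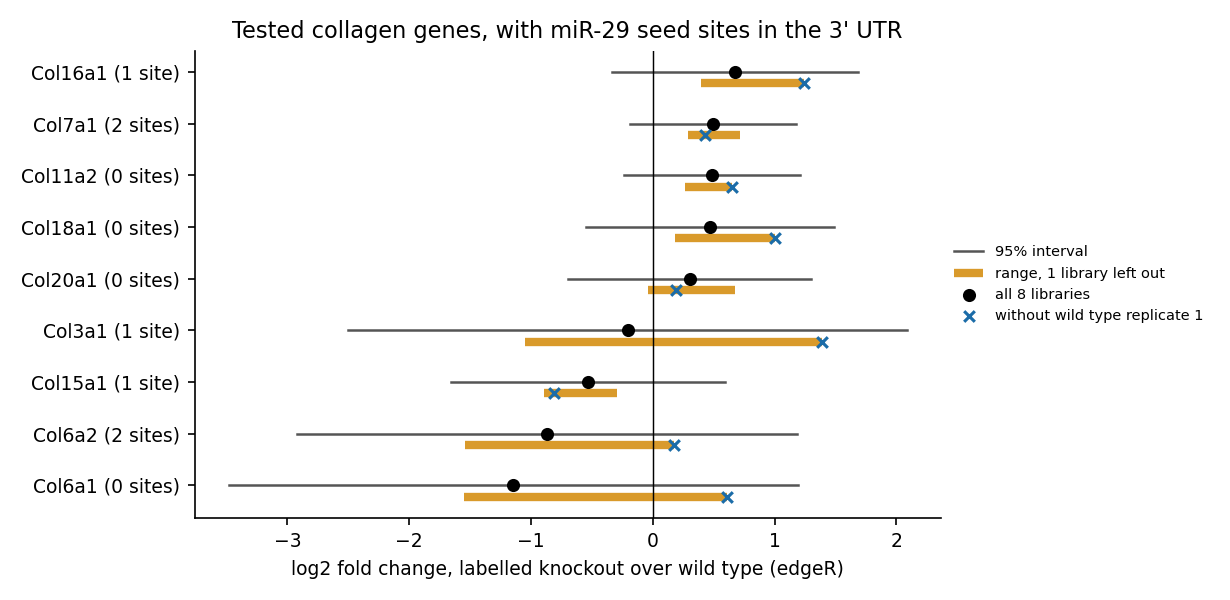
Log2 fold change of the 9 tested collagens (horizontal axis, labelled knockout over wild type), with the 95% interval as a thin line, the range over fits that leave out 1 library as a thick line and the fit without wild type 1 as a cross. Every interval includes 0, and the cross lies on the other side of 0 from the point in Col3a1, Col6a1 and Col6a2.

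Directions were also read by the presence of a site. Of the 5 tested collagens with a 7-base site, 2 had a log2 fold change above 0 (Col16a1 and Col7a1) and 3 below 0 (Col3a1, Col15a1 and Col6a2), with a median of -0.21. Of the 4 without a site, 3 were above 0, with a median of 0.39. Without wild type 1, 4 of the 5 with a site were above 0 (median 0.43) and 4 of the 4 without one (median 0.63); without labelled knockout 4, 2 of the 5 (median -0.21) and 2 of the 4 (median 0.07) were. For the 5 with a site, 3 were above 0 without labelled knockout 1 (median 0.09) and without labelled knockout 3 (median 0.08). The 2039 tested genes with a site had a median of 0.02. Over the 28 collagens with at least 10 counts, fitted without the filter, 14 were above 0 and 14 below, with a median of 0.08; 8 of the 18 with a site were above 0 and 6 of the 10 without. Fitted in the same way without wild type 1, an alternative added after seeing the data, 20 of the 28 were above 0 with a median of 0.51, as 12 of the 18 and 8 of the 10. These are counts over few genes that were measured in the same libraries, and the difference between genes with and without a site was not tested.

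Summed over all 44 genes, collagen transcripts made up 57.1, 29.2, 25.9 and 29.9 CPM in wild type 1 to 4 and 29.0, 50.02, 25.7 and 41.1 CPM in labelled knockout 1 to 4. The means were 35.5 ± 14.5 CPM and 36.5 ± 11.2 CPM (SD, n = 4 each), a difference far smaller than the spread within either group. With library sizes as plain total counts the order of the means turned, to 37.2 CPM in wild type and 34.9 CPM in labelled knockout. Without wild type 1 the labelled knockout mean was 1.29 times that of wild type.

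The type I, III and VI collagens were set beside markers of connective tissue, whose members did not share one order of the libraries. Col1a1, Col1a2, Col3a1, Col6a1, Col6a2 and Col14a1 together, a group put together after their values were seen, made up 29.1, 6.83, 3.22 and 0.605 CPM in wild type and 1.91, 12.3, 1.95 and 6.34 CPM in labelled knockout. Dcn, a proteoglycan of connective tissue, had 14.2, 3.83, 1.81 and 0.135 CPM in wild type and 0.368, 3.97, 0.471 and 2.66 CPM in labelled knockout. Both gave wild type 1 the highest value of the 8 libraries and wild type 4 the lowest. Of the 9 fibroblast markers with at least 10 counts, 5 were highest in wild type 1, Dcn among them. Vim, next to Fbln1 in FPKM, was another, with 32.95 CPM there and 7.74 to 14.5 CPM elsewhere. Some markers ran differently. Fn1, fibronectin, had 0.551, 4.08, 3.10 and 11.1 CPM in wild type, highest in wild type 4, and 0.295 to 0.716 CPM in labelled knockout. Pdgfrb was lowest of all 8 libraries in wild type 1, at 2.51 CPM. Dcn, Fn1 and Pdgfrb were singled out after their values were seen. In bulk RNA, fewer cells of a type and less RNA per cell cannot be told apart, and the part of connective tissue cells in the collagen values was not tested.

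The whole list of 12 fibroblast markers gave another order. It summed to 157 to 243 CPM in wild type and 109 to 240 CPM in labelled knockout, and wild type 1 was seventh of 8, since Fbln1, a matrix glycoprotein, made up most of the sum with means of 171 and 169 CPM. Without Fbln1, a choice made after seeing the data, it summed to 24.6 to 64.7 CPM in wild type, with wild type 1 highest, and 17.3 to 30.9 CPM in labelled knockout. The defining marker Pdgfra had 4 counts in all and Postn 4. All 12 markers had a count and 7 were tested, 0 called, 2 above 0 and 5 below, with 1 to 4 above 0 when any 1 library was left out. Smooth muscle markers were near the floor, with 0 of 8 tested and sums of 0.740 to 2.51 CPM in wild type and 1.06 to 2.15 CPM in labelled knockout.

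Wild type 1 was not the highest library in the sums of endothelial, glial or immune markers. Endothelial markers, 2 of 8 tested, summed to 4.01 to 5.09 CPM in wild type and 3.90 to 5.79 CPM in labelled knockout, and Emcn was at 0 counts. Enteric glia markers, 1 of 6 tested, summed to 1.00 to 2.89 CPM and 2.18 to 3.60 CPM, and Foxd3 was at 0 counts. Immune markers, 8 of 8 tested and 0 called, were all 8 below 0, with a median of -0.38. Of them 2 were above 0 without wild type 1 or labelled knockout 4, 3 without wild type 2 and 1 without labelled knockout 3. The 8 summed to 69.4 to 130 CPM and 55.8 to 102 CPM. By FPKM, which unlike these sums scales to gene length, the highest were Cd8a at 6.29 FPKM and Lyz2 at 3.59 FPKM.

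**Figure D4:**
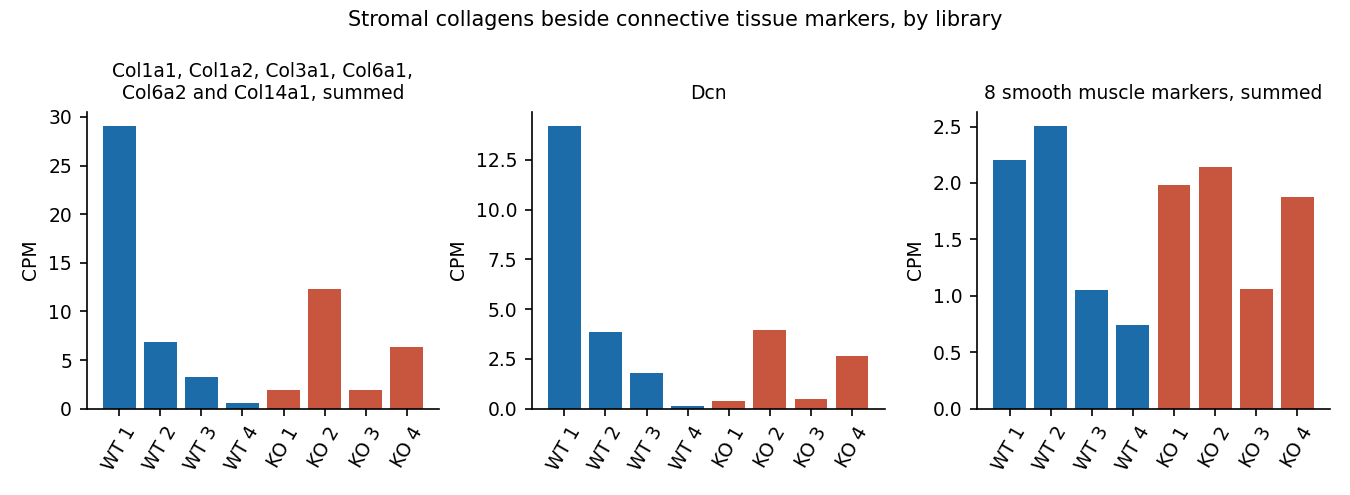
CPM per library (vertical axes from 0, 1 bar per library, WT for wild type in blue and KO for labelled knockout in red) of 6 collagens summed, of the fibroblast marker Dcn and of 8 smooth muscle markers summed. The collagen sum and Dcn are both highest in wild type 1 (29.1 and 14.2 CPM) and lowest in wild type 4 (0.605 and 0.135 CPM), but another fibroblast marker, Fn1, was highest in wild type 4 (11.1 CPM, not plotted); the smooth muscle sum stays at or below 2.51 CPM in every library.

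Parts of the machinery that makes and reads collagen were better measured than the collagens, but processing and crosslinking was little better, with 3 of 12 genes tested. No gene of the machinery passed the threshold. Of 18 genes of collagen folding and modification 12 were tested, 0 were called, and 6 lay above 0 and 6 below, with a median log2 fold change of 0.02. The most abundant were P4hb, the shared subunit of prolyl hydroxylase and a general disulfide isomerase, at 617 FPKM, and Ppib, a prolyl isomerase, at 26.7 FPKM. P3h1, which hydroxylates proline in type I chains and has a 7-base site, had the smallest p of the list, with 0.771 ± 0.23 CPM in wild type and 1.39 ± 0.435 CPM in labelled knockout (SD, n = 4 each; log2 fold change 0.84, SE 0.36, edgeR adjusted p = 0.994). P4ha1, a catalytic subunit of prolyl hydroxylase, followed at -0.51 with an SE of 0.31.

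Of 12 genes of processing and crosslinking 3 were tested, with 1 above 0 and 2 below; without wild type 1, 3 were above 0. Bmp1, the protease that trims the end of procollagen, had a log2 fold change of 0.53 with an SE of 0.40, and Pxdn, a peroxidase that crosslinks type IV, of -0.43 with an SE of 0.62. Without wild type 1, its highest library at 35.4 CPM, Pxdn was at 0.18, in the other direction. Of 10 collagen receptors 5 were tested, with 3 above 0 and 2 below and a median of 0.16. They were led by Itgb1, the shared integrin subunit, at 49.4 FPKM and Ddr1, a receptor kinase of epithelium, at 23.9 FPKM. Itga2, the collagen-binding integrin chain, had a log2 fold change of -0.34 with an SE of 0.19, and Ddr1 of 0.16 with an SE of 0.12. No gene of either list was called.

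Of 11 genes of collagen breakdown 7 were tested and 0 called, with 4 above 0 and 3 below and a median of 0.33; 6 were above 0 without wild type 1, and also without wild type 2. Over all fits that left out 1 library the median was 0.10 to 0.48. Pepd, which splits proline dipeptides, was the most abundant at 140 FPKM, followed by Mmp14, a membrane collagenase, at 4.02 FPKM. Mmp8, the collagenase of neutrophils, had 0.735, 0.0627, 0.292 and 0.202 CPM in wild type and 2.13, 1.43, 0.707 and 1.18 CPM in labelled knockout. The lowest labelled knockout library was just below the highest wild-type library, and the log2 fold change was 2.03, SE 0.60 (edgeR, adjusted p = 0.994). It was 1.70 to 2.80 when any 1 library was left out, the highest without wild type 1. Fap, a protease of activated fibroblasts, was at 0.55 with an SE of 0.46.

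Of 7 matrix genes other than collagens that are known as miR-29 targets, 2 were tested, both with a log2 fold change above 0, and 0 were called. Lamc1, a laminin chain of all common basement membranes and a carrier of a 7-base site, had 18.9, 11.0, 10.2 and 10.8 CPM in wild type and 26.7, 18.5, 22.3 and 16.2 CPM in labelled knockout. All labelled knockout libraries were above wild type 2, 3 and 4, and wild type 1 lay within their range. For Lamc1 the fitted log2 difference was 0.72, SE 0.24 (edgeR, adjusted p = 0.994), and it stayed between 0.58 and 0.97 when any 1 library was left out. No 7-base match was found for Sparc, a collagen-binding protein. It had 4.90, 0.878, 0.292 and 0.0673 CPM in wild type and 0.735, 4.29, 0.707 and 2.35 CPM in labelled knockout. Sparc was highest in wild type 1 and labelled knockout 2, as for type I collagen. Its log2 fold change was 0.39, SE 1.02, 2.26 without wild type 1 and -0.30 without labelled knockout 2.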

How the data were processed

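RNA of 8 crypt libraries was taken up in TRIzol and made into libraries with a kit that marks strand, per the labels' protocols. The submitters' processing notes name HISAT2 and DESeq2, with no version. The genome build, annotation release, read counter and its use of strand were not given in the sources used here. Gene coordinates in the deposited table were identical to GENCODE M21 (GRCm38) for 99.47% of 55144 shared genes and for all 44 collagens, and this build is used for positions.

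The deposited table holds whole-number counts per gene and library. The FPKM the authors deposited were, as checked on the values, counts over gene length times 1 constant per library. From the authors' deposited table, log2 fold changes and adjusted p-values are given only for Col14a1. The authors' deposited heat map table, a subset of genes, was not used.

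Tests on the counts used edgeR 4.0.16 under R 4.3.3 (TMM, filterByExpr, robust quasi-likelihood test, Benjamini-Hochberg, threshold 0.05) on all genes; DESeq2 1.42.0 was an alternative. The edgeR fit was also run on simulated counts, with changes put into genes drawn from all genes tested. Collagens were not simulated separately, so that run does not give the power to detect changes in them. The SE is the absolute log2 fold change over the square root of F, and the 95% interval uses the t distribution with the fit's degrees of freedom. CPM use TMM library sizes. 3′ UTRs of at least 50 bases were searched for sites. Alternatives were RLE size factors, no filter, a stricter filter, a replicate block, and leaving out each library.

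The collagen genes, the lists and the tests were chosen with earlier results of these data known. Named with the value in every library were all tested collagens and Col1a1, Col1a2, Col3a1, Col4a1 and Col4a2; collagens with at least 10 counts have their range, and the others their total. Of each other list, the 2 genes with the smallest p and the 2 with the highest FPKM were named. Of the epithelial, fibroblast and immune marker lists the 2 highest in FPKM were named, and of all marker lists those at 0. Dcn, Fn1, Pdgfrb, Pdgfra, Postn and the library values of Mmp8, Lamc1 and Sparc were added after seeing the data.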

Additional observations from a re-analysis of the deposited data

Results flagged for a closer look

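Within each group of 4 libraries, a library was set apart when its gap to the nearest other was, as a share of the group's range, above Dixon's critical value for 4 samples. Of 36 groups of collagen values examined, 5 met it. For independent, normally distributed values chance gives about 1 in 20. Many of these groups are low counts, all come from the same libraries, and the sum holds the single genes. That rate need not apply here, so the number is not read as an excess. In wild type, replicate 1 had 57.1 CPM over all collagens summed (25.9 to 29.9 CPM in the others), 4.59 CPM of Col6a1 (0 to 0.690 CPM) and 2.82 CPM of Col16a1 (0.877 to 1.07 CPM). In labelled knockout, replicate 2 had 1.76 CPM of Col1a2 (0 to 0.0783 CPM in the others) and replicate 3 had 0.884 CPM of Col4a1 (0.294 to 0.390 CPM).

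Wild type 1 was the highest library for 10 of the 28 collagens with at least 10 counts, and for 14.3% of all 21024 genes with as many counts. Labelled knockout 4 was the highest for 3 of the 28 collagens, and for 24.3% of all these genes.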

How the results depend on the processing

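The count of collagens called was 0 in every alternative run, and the lowest adjusted p of any tested collagen over its alternatives was 0.576 to 0.986. The log2 fold change of Col7a1, Col11a2, Col15a1, Col16a1 and Col18a1 kept its direction in all of them. Leaving out each library in turn gave a log2 fold change of -0.040 to 0.68 for Col20a1, -1.05 to 1.39 for Col3a1, -1.55 to 0.61 for Col6a1 and -1.54 to 0.17 for Col6a2, which turns the direction; the turn came without labelled knockout 4 for Col20a1, without wild type 1, labelled knockout 1 or 3 for Col3a1, and without wild type 1 for Col6a1 and Col6a2. The cause was not tested. The number of collagens tested was 1 at 5 CPM in 4 libraries, and 10 to 13 when any 1 library was left out. The number above the receptor level was 14 at the 99th percentile and 15 where every library had to pass. The median log2 fold change of collagens was -0.30 over the 40 genes fitted with no filter, which adds genes of few counts, and -0.040 to 0.61 over the 9 tested genes when a library was left out.

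No sign of pairing by replicate number was seen: the deviations of same-numbered libraries correlated at 0.075, 0.034, -0.388 and -0.087. Also, 0 wild-type libraries correlated best with their own number. So few values cannot settle whether the libraries were paired. With the replicate block 0 collagens were called, and the log2 fold change of Col3a1 was 0.49. With all 8 libraries and the main filter only 9 of 44 collagens were tested, and the upper ends of their 95% intervals ran from 1.51-fold to 4.25-fold.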
